A study of Mus musculus with 12 samples.

Results

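A set of 10 lytic granule genes of killer T cells was read in OT-I cells. The cells were primed with a strong or a weak peptide, with or without corticosteroid. The genes serve the formation, transport or release of granules or encode granule contents and membrane proteins, and Fasl encodes a surface ligand. They are Lyst, Unc13d, Rab27a, Stx11, Stxbp2, Srgn, Lamp1, Fasl, Ctsw and Nkg7, taken by gene symbol from the deposited gene-level array table, and they are 10 of 39463 genes with a symbol. Each had 1 transcript cluster (a set of array probes for 1 gene), so no choice between clusters was needed. All 10 lay above the background controls on 12 of 12 arrays.

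OT-I cells carry a transgenic T cell receptor that sees an ovalbumin peptide on a class I molecule. Splenocytes of this kind were cultured for 4 days with the peptide N4, the strong agonist, or with Y3, an altered form that the receptor binds more weakly. The 4 groups were N4 alone, N4 with corticosteroid, Y3 alone and Y3 with corticosteroid, with 3 arrays each. The labels numbered the arrays of a group 1 to 3 as biological replicates, without saying whether these were separate mice or cultures, so p-values measure the spread of these arrays alone, and some of that spread may be technical. All groups share the OT-I receptor and a peptide, so none holds unstimulated cells. The name and dose of the corticosteroid, the age and sex of the mice and their strain beyond OT-I are not stated in the sources used here.

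A cytotoxic T cell stores perforin and granzymes in lysosome-related granules, bound to the proteoglycan serglycin. When the receptor meets its target, the granules move to the contact site, are tethered and primed at the plasma membrane, and fuse there through SNARE proteins. In humans, inherited loss of LYST, UNC13D, RAB27A, STX11 or STXBP2 impairs this route and causes forms of haemophagocytic lymphohistiocytosis.

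Marker genes were read against the label of the cells. Of 7 CD8 T cell markers (Cd8a, Cd8b1, Cd3d, Cd3e, Cd3g, Cd247 and Lat), 7 were above background in every group. Among 8 natural killer cell markers, 1 or 2 were above background in a group, and Ncr1, Klra8, Klra4, Klra7 and Tyrobp were below it in all 4 groups. Of 7 B cell markers, 2 (Cd79b and Ighm) were above background in every group, while Ms4a1, Cd79a, Pax5 and Cd22 were below it in all 4, as was Alas2 of erythroid cells. Dendritic cell and macrophage markers were above background for 3 of 11 genes, with Itgax, Csf1r, Adgre1 and Lyz2 below it throughout. These are bulk RNA values from cultures, in which fewer cells of a type and less RNA per cell cannot be told apart. Signals of different genes come from different probes, so each gene is compared with itself only.

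The question behind the first comparison was how the strength of the priming peptide relates to this machinery. Lyst and Ctsw were higher and Stx11 lower after Y3 than after N4, in both steroid states and in 3 of 3 pairs of arrays with the same replicate number. The size of these differences was 1.65, 1.22 and -1.12 on the log2 scale without corticosteroid, and 1.97, 1.25 and -0.88 with it. The other 7 genes differed by between -0.35 and 0.42 in the same comparisons, and none of them passed the test.

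Whether the 3 genes passed depended on how the replicate number was treated. Tests used limma (linear models with a spread shared across genes), with p-values adjusted over all 39463 genes and a threshold of 0.05. Without a term for the replicate number, 0 of the 10 genes passed in the steroid-free comparison, where 0.0304% of all genes did, and 1 of 10, Lyst, passed with corticosteroid, where 0.256% did. Arrays that shared a replicate number deviated together in all 18 pairs across groups, so the number was also fitted as a block. Across the peptides that pairing was less clear. Array 3 of an N4 group correlated with array 2 of a Y3 group at 0.402 to 0.481. Its correlation with array 3 of the Y3 group was 0.220 to 0.423. The blocked calls between the peptides rest on this pairing. With the block, 3 of 10 passed in each comparison, 2 higher and 1 lower after Y3. The share of all genes that passed was then 2.94% without and 6.53% with corticosteroid, and 8.98% and 17.6% when only the 16002 genes with a mean at or above the background line were tested. The median difference of the 10 genes was 0.04 in each comparison, beside 0.00 and -0.01 for all genes, so the set as a whole lay near the centre of the array.

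Lyst encodes a large BEACH-domain protein that governs the size of lysosomes and granules, and is the gene lost in Chediak-Higashi disease and in the beige mouse. Its log2 signal was 8.86, 9.25 and 9.01 (replicates 1 to 3) after N4 and 9.09, 9.33 and 8.93 after N4 with corticosteroid. After Y3 it was 10.35, 11.003 and 10.71, and with corticosteroid 10.60, 11.75 and 10.91. Every Y3 array was above every N4 array, whatever the steroid state, and the lowest Y3 value exceeded the highest N4 value by about 1 log2 unit. The Y3 mean was 3.14-fold the N4 mean without corticosteroid, a log2 difference of 1.65 ± 0.27 (SE, n = 3 per group, limma adjusted p = 0.0967; with the block ± 0.16, adjusted p = 0.00274). With corticosteroid the ratio was 3.92-fold, a log2 difference of 1.97 ± 0.27 (limma adjusted p = 0.0350; with the block 0.000992). The unblocked call with corticosteroid was lost when 1 of 9 arrays was left out (N4 replicate 2 or 3, Y3 replicate 2 or 3, N4 with corticosteroid replicate 1, 2 or 3, Y3 with corticosteroid replicate 2 or 3), with adjusted p between 0.0532 and 0.142. With the block, Lyst passed in both comparisons whichever array was left out, with adjusted p of at most 0.0223.

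Ctsw encodes cathepsin W, a papain-like cysteine protease found in cytotoxic lymphocytes. Its log2 signal was 13.47, 14.92 and 14.45 after N4, and 13.61, 15.12 and 14.59 after N4 with corticosteroid. After Y3 it was 15.03, 15.98 and 15.49, and with corticosteroid 15.33, 16.01 and 15.73. Within each steroid state the Y3 arrays lay above the N4 arrays, but replicate 2 of N4 with corticosteroid lay above replicate 1 of Y3 alone. The ratio of Y3 to N4 was 2.33-fold without corticosteroid (log2 difference 1.22 ± 0.44 SE, n = 3 per group, limma adjusted p = 0.457) and 2.38-fold with it (1.25 ± 0.44, adjusted p = 0.298). With the block the adjusted p was 0.00633 and 0.00347, and at most 0.0337 with any 1 array left out.

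Stx11 encodes syntaxin 11, a membrane SNARE of the granule fusion step, which Munc18-2, the product of Stxbp2, holds and stabilises. Its log2 signal was 10.38, 8.78 and 9.76 after N4 and 8.94, 8.33 and 9.47 after N4 with corticosteroid. After Y3 it was 8.83, 8.02 and 8.71, and with corticosteroid 8.55, 7.49 and 8.07. The groups overlapped in every comparison, since replicate 2 was low throughout, and only the pairs of equal number were ordered alike. The Y3 mean was 2.17-fold lower without corticosteroid (log2 difference -1.12 ± 0.44 SE, n = 3 per group, limma adjusted p = 0.506) and 1.83-fold lower with it (-0.88 ± 0.44, adjusted p = 0.517). With the block the adjusted p was 0.0239 and 0.0367. Those blocked calls were not firm. The first was lost without any 1 of the 6 arrays compared, with adjusted p between 0.0567 and 0.110. The second was lost without N4 with corticosteroid replicate 2 or 3, or any 1 of the Y3 or Y3 with corticosteroid arrays, with adjusted p between 0.0568 and 0.128.

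**Figure D1:**
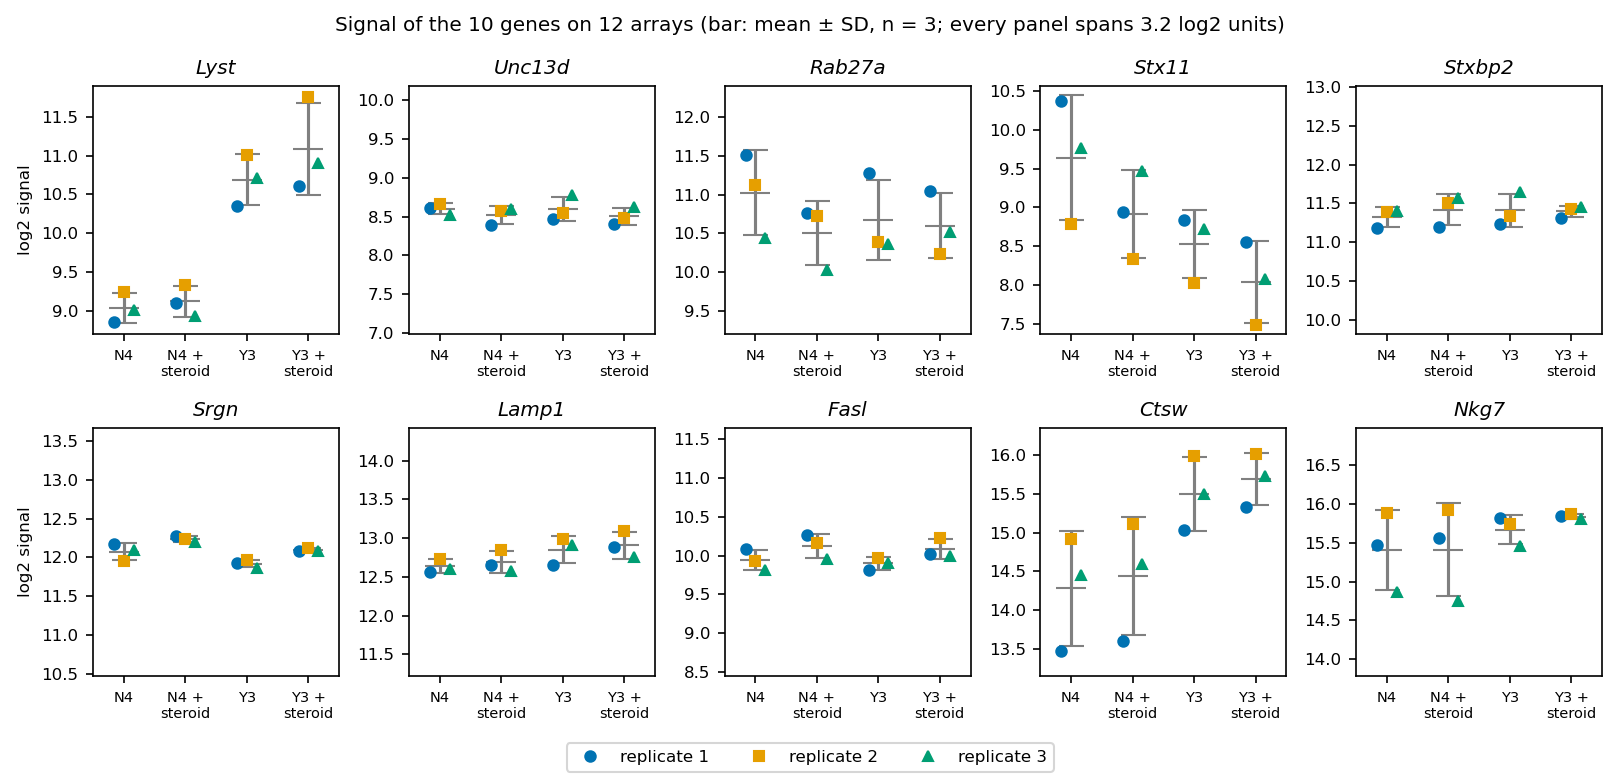
Log2 signal (y axis) of each of the 10 genes in the 4 groups (x axis), with 1 point per array, marked by replicate number, and the mean ± SD of 3 arrays as a grey bar. Every panel spans the same height, so the step between N4 and Y3 in Lyst, from means of 9.04 to 10.69 without corticosteroid, can be set beside the nearly flat Unc13d and Stxbp2, and replicate 2 can be seen lowest in Stx11 and highest in Ctsw in all 4 groups.

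CD8 T cell markers moved the same way as Lyst and Ctsw. Of 7 such markers 7 were higher after Y3 in both steroid states, by a median of 0.44 without and 0.43 with corticosteroid on the log2 scale. With the block 2 and 4 of them passed, among them Cd8b1 at 0.79 (limma adjusted p = 0.00918) and 0.88 (adjusted p = 0.00352). Their linear signals were summed, with most weight on the brightest (Cd8b1, Cd3e and Cd8a), and the sum was put on the log2 scale. That sum ran from 18.12 to 18.39 after N4 and from 18.43 to 19.15 after Y3. With corticosteroid the sum of these markers ran from 18.00 to 18.42 and from 18.57 to 19.05. The part of these markers in the differences of Lyst and Ctsw was not tested. The largest of the 7 marker differences were 0.79 and 0.88. Different genes have different probes, so these sizes were not set against those of Lyst and Ctsw. The natural killer marker Klrb1c differed by 1.06 between the peptides with corticosteroid (limma adjusted p = 0.0174 with the block). Klrb1c was below background in the N4 group with corticosteroid, so the size of that difference is uncertain. The summed signal of the 8 natural killer markers stayed between 7.67 and 8.28 on the log2 scale over the 12 arrays. Only 1 or 2 of the 8 were above background in a group. Much of that sum is therefore background signal, and it cannot show whether natural killer content was steady. Of 11 dendritic cell and macrophage markers 0 passed with the block without corticosteroid (4 higher and 7 lower after Y3, median -0.07). With corticosteroid 1 passed, H2-Ab1 of the class II molecules, which was lower (-1.52, limma adjusted p = 0.0163), among 8 higher and 3 lower (median 0.04). Their summed signal on the log2 scale, to which 3 genes above background contribute most, ran from 12.18 to 12.51 after N4. After Y3 it ran from 11.27 to 11.82. With corticosteroid it ran from 11.46 to 12.72 after N4 and from 10.79 to 11.38 after Y3. The part of those cells in the Stx11 difference was not tested. Among markers of mast cells, basophils and platelets, Cpa3 passed with the block in both steroid states (2.01 and 1.52). Cpa3 was below background in both N4 groups, so the sizes of its differences are uncertain. Among B cell markers Cd79b passed with the block in both steroid states (0.68 and 0.55). Ighm, the brightest B cell marker, differed by 1.29 (limma adjusted p = 0.0501 with the block) and 0.86 (0.130) without passing. The summed signal of 7 B cell markers, which is mostly that of Ighm, ran from 12.60 to 14.11 after N4 on the log2 scale. After Y3 it ran from 14.36 to 14.77. With corticosteroid it ran from 12.70 to 13.95 after N4 and from 13.82 to 14.29 after Y3. For 8 mast cell, basophil and platelet markers the summed signal on that scale was 7.38 to 7.51 after N4 against 7.77 to 8.28 after Y3. With corticosteroid it was 7.32 to 7.48 against 7.66 to 7.88. Of these 8, 0 were above background in each N4 group and 1 in each Y3 group, so much of that sum is background signal. Of 4 markers of CD4 and regulatory T cells, 0 passed with the block without corticosteroid and 1 with it, Cd4 (means 5.51 after Y3 and 4.67 after N4, difference 0.84, limma adjusted p = 0.0479), which lay above background on 1 of 12 arrays, while Foxp3 was below background in all 4 groups. The part of these markers in the results was not tested either.

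Of the other genes that tether and prime granules, Unc13d, Stxbp2 and Rab27a did not pass between the peptides with limma, without or with the block. Unc13d encodes Munc13-4, which primes docked granules for fusion, and its log2 signal stayed between 8.39 and 8.78 on all 12 arrays. Its Y3 minus N4 differences were 0.00 (95% interval -0.23 to 0.23) without and -0.02 (-0.25 to 0.21) with corticosteroid. For Stxbp2, which encodes the partner of syntaxin 11, the signal stayed between 11.18 and 11.65, and the differences were 0.09 (-0.21 to 0.38) and -0.02 (-0.32 to 0.27). The intervals leave room for changes of at most about 0.4 log2 units in either gene. Rab27a, the small GTPase that docks granules at the membrane by binding Munc13-4 and synaptotagmin-like proteins, varied more, with 11.52, 11.12 and 10.44 after N4 and 11.27, 10.38 and 10.36 after Y3. It was lower after Y3 in 3 of 3 pairs, by -0.35 with an interval of -1.13 to 0.42, and the arrays of both peptides overlapped. With corticosteroid it was higher after Y3 in 2 of 3 pairs, by 0.10 (-0.68 to 0.87). The 2 differences of Rab27a moved with single arrays, the steroid-free one to -0.65 without replicate 1 of Y3 and -0.11 without replicate 1 of N4, and the other to -0.14 without replicate 3 of N4 with corticosteroid.

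Granule cargo and membrane proteins, with the surface ligand, also gave small differences between peptides. Srgn encodes serglycin, the proteoglycan that holds the granule contents. Its log2 signal was 12.17, 11.95 and 12.10 after N4 and 11.93, 11.96 and 11.87 after Y3, and with corticosteroid 12.27, 12.23 and 12.20 against 12.08, 12.12 and 12.08. The peptide groups overlapped without corticosteroid and did not with it, where Srgn was lower by 0.14 after Y3 (limma adjusted p = 0.536). Lamp1, a heavily glycosylated membrane protein of lysosomes and granules that appears on the surface after release, lay between 12.56 and 12.74 after N4 and between 12.65 and 12.98 after Y3. It was higher after Y3 in 3 of 3 pairs in each steroid state, by 0.22 in both (limma adjusted p = 0.707 and 0.578).

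Nkg7 encodes a small membrane protein of granules that contributes to their release. Its log2 signal was 15.47, 15.88 and 14.86 after N4 and 15.82, 15.74 and 15.45 after Y3. With corticosteroid it was 15.57, 15.92 and 14.75 after N4 and 15.84, 15.87 and 15.80 after Y3. The spread shrank from an SD of 0.52 and 0.60 after N4 to 0.19 and 0.03 after Y3, mainly because replicate 3 was low in the N4 groups, and that change in spread was not tested. Fasl, the ligand that kills through the receptor Fas, stayed between 9.81 and 10.26 on all 12 arrays, with differences of -0.04 in both steroid states (95% intervals -0.29 to 0.20 and -0.28 to 0.20).

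Groups that did not overlap were found for 2 of 10 genes (Lyst and Ctsw) without corticosteroid and for 3 of 10 (Lyst, Ctsw and Srgn) with it. Over all genes, 11.3% and 16.5% had groups that did not overlap in the same comparisons, so 2 or 3 in 10 is not far above the array. That share was not computed for genes at or above the background line alone, to which all 10 belong.

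**Figure D2:**
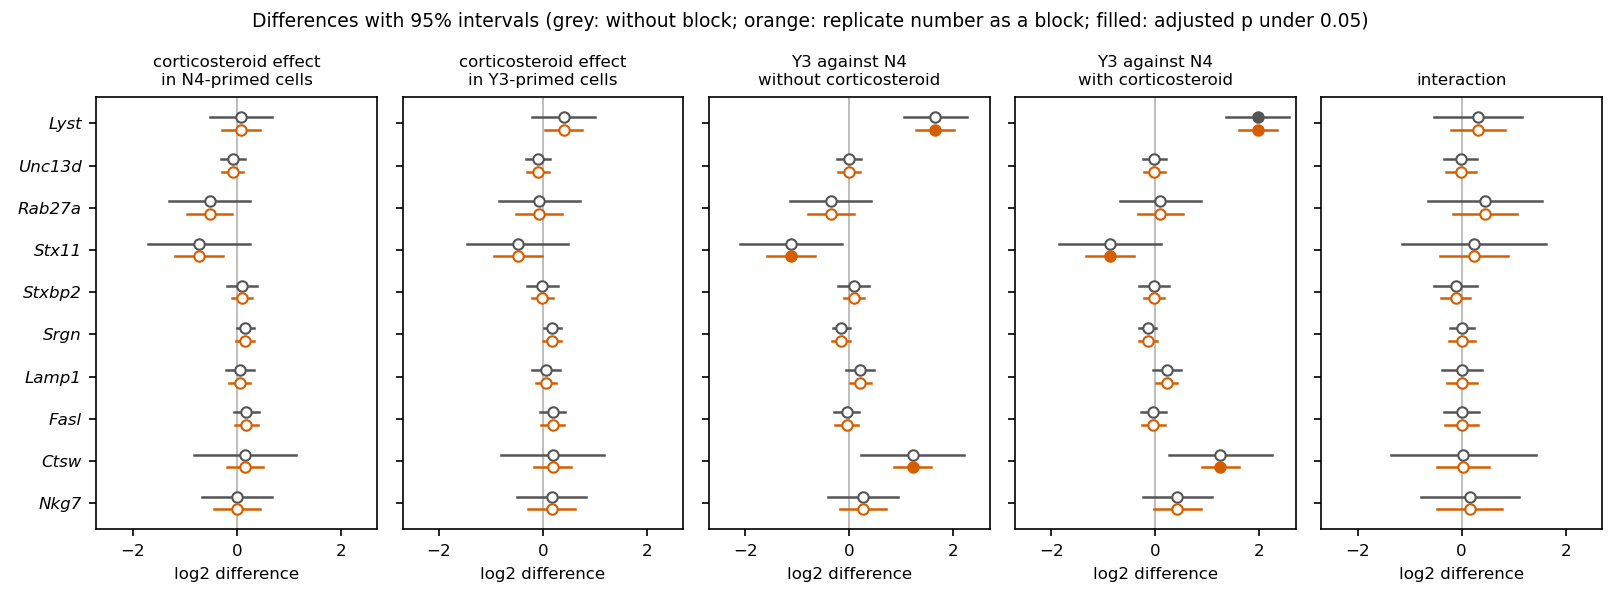
Log2 differences (x axis, point) with 95% intervals (lines) of the 10 genes (rows) in 5 comparisons (panels), without the block in grey and with the replicate number as a block in orange; filled points have an adjusted p under 0.05. Lyst, Ctsw and Stx11 are filled in orange in both Y3 against N4 panels, Lyst alone is filled in grey, and no point is filled in the corticosteroid or interaction panels.

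The second comparison asked how corticosteroid during priming related to the same genes. None of the 10 passed after N4 or after Y3, with limma without or with the block, and the smallest adjusted p was 0.679 (Lyst after Y3, with the block). Over all genes 0% passed in either peptide without the block (0 genes, with 749 and 1259 at an unadjusted p under 0.05). With the block 0.00253% passed after N4, which is 1 gene, and 0% after Y3 (2649 at an unadjusted p under 0.05). The median difference of the 10 genes was 0.07 after N4 and 0.11 after Y3, beside 0.00 and 0.00 for all genes.

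Srgn and Fasl gave the most even small differences. Srgn was 0.16 higher with corticosteroid after N4 and 0.17 higher after Y3 (95% intervals -0.00185 to 0.32 and 0.01 to 0.34). With the block the intervals were -0.0140 to 0.34 and -0.000566 to 0.35, both across 0. Srgn was higher in 3 of 3 pairs under each peptide, and its treated and untreated arrays did not overlap under either. Fasl was 10.08, 9.93 and 9.81 after N4 and 10.26, 10.16 and 9.95 with corticosteroid, then 9.81, 9.97 and 9.91 after Y3 and 10.02, 10.23 and 9.99 with it. It was 0.18 higher in both, in 3 of 3 pairs each, and its groups overlapped after N4 and not after Y3. Groups without overlap thus held 1 of 10 genes after N4 and 2 of 10 after Y3, where 5% and 8.43% of all genes had them.

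Stx11 was lower with corticosteroid in 3 of 3 pairs under each peptide, by -0.73 after N4 (95% interval -1.70 to 0.25) and -0.49 after Y3 (-1.46 to 0.49). In the N4 groups most of that came from replicate 1, at 10.38 without and 8.94 with corticosteroid. Rab27a was 10.76, 10.72 and 10.03 after N4 with corticosteroid, lower than its untreated partner in 3 of 3 pairs, with a mean difference of -0.52 (-1.30 to 0.26). After Y3 with corticosteroid it was 11.05, 10.23 and 10.52, a difference of -0.07 (-0.85 to 0.70). Lyst was 0.08 higher after N4 (-0.52 to 0.69) and 0.40 higher after Y3 (-0.21 to 1.00). Without replicate 2 of the Y3 group with corticosteroid, the latter was 0.0649. With 1 array left out, the N4 difference ran from -0.82 (without replicate 3 of N4) to -0.28 (without replicate 1 of N4) for Rab27a and from -1.16 (without replicate 2 of N4) to -0.36 (without replicate 1 of N4) for Stx11, and the Y3 difference of Stx11 reached -0.21 without replicate 2 of Y3 with corticosteroid. For Ctsw the differences were 0.16 (-0.83 to 1.14) and 0.19 (-0.80 to 1.17), higher in 3 of 3 pairs each. The 4 other genes (Unc13d, Stxbp2, Lamp1 and Nkg7) differed by between -0.09 and 0.17.

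The difference between the corticosteroid effects under Y3 and N4, the interaction, was tested directly. It passed for 0 of 10 genes and for 0% of all genes, without the block and with it (673 and 1102 genes had an unadjusted p under 0.05). The largest difference among the 10 was that of Rab27a, at 0.45 with a 95% interval of -0.65 to 1.55, followed by Lyst at 0.32 (-0.54 to 1.17). The intervals were wider for Ctsw (-1.37 to 1.43) and Stx11 (-1.14 to 1.62). Intervals of this width do not show that the peptides gave the same response to corticosteroid.

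The replicate number went with a large part of the spread of several genes. The layout of 2 peptides, 2 steroid states and 3 numbers is balanced, so the sum of squares of each gene over 12 arrays was divided among them. For Lyst, 88.1% went with the peptide and 7.05% with the number. For Ctsw the shares were 60.1% and 35.1%, and for Stx11 42.4% and 34.0%, with 15.8% for corticosteroid. Rab27a and Stxbp2 varied mostly with the number, at 59.7% and 72.8%, and Srgn and Fasl had their largest share with corticosteroid, at 46.0% and 41.9%. The small total spread behind the last 2 shares, an SD of 0.13 and 0.15 over 12 arrays against 1.01 for Lyst, belongs beside them. The median gene at or above the background line had 15.5% with the peptide, 2.65% with corticosteroid and 41.6% with the number.

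In an F test of the replicate number, added after the data were seen, 4 of 10 genes passed, where 17.4% of all genes did and 44% of those at or above the background line. The 4 were Ctsw (limma adjusted p = 0.00301), Stx11 (0.00963), Rab27a (0.0243) and Lyst (0.0338). Ctsw was lowest in replicate 1 and highest in replicate 2 in 4 of 4 groups, 1.15 log2 units apart on average, which is nearly its Y3 minus N4 difference. Stx11 ran the other way, lowest in replicate 2 in 4 of 4 groups. Rab27a was highest in replicate 1, and Lyst in replicate 2, in 4 of 4 groups each. Nkg7 was lowest in replicate 3 in 4 of 4 groups without passing (adjusted p = 0.0628). The calls of Ctsw and Stx11 held whichever array was left out. That of Rab27a was lost without replicate 1 or 3 of N4, replicate 3 of N4 with corticosteroid, replicate 1 of Y3 or replicate 1 of Y3 with corticosteroid, with adjusted p of up to 0.0947. Lyst lost its call without replicate 1 or 3 of N4, 2 or 3 of N4 with corticosteroid, 1 or 2 of Y3, or 1 or 2 of Y3 with corticosteroid, with adjusted p of up to 0.0937. What the numbers stand for was not given, so a day, a mouse and a culture cannot be told apart here.

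**Figure D3:**
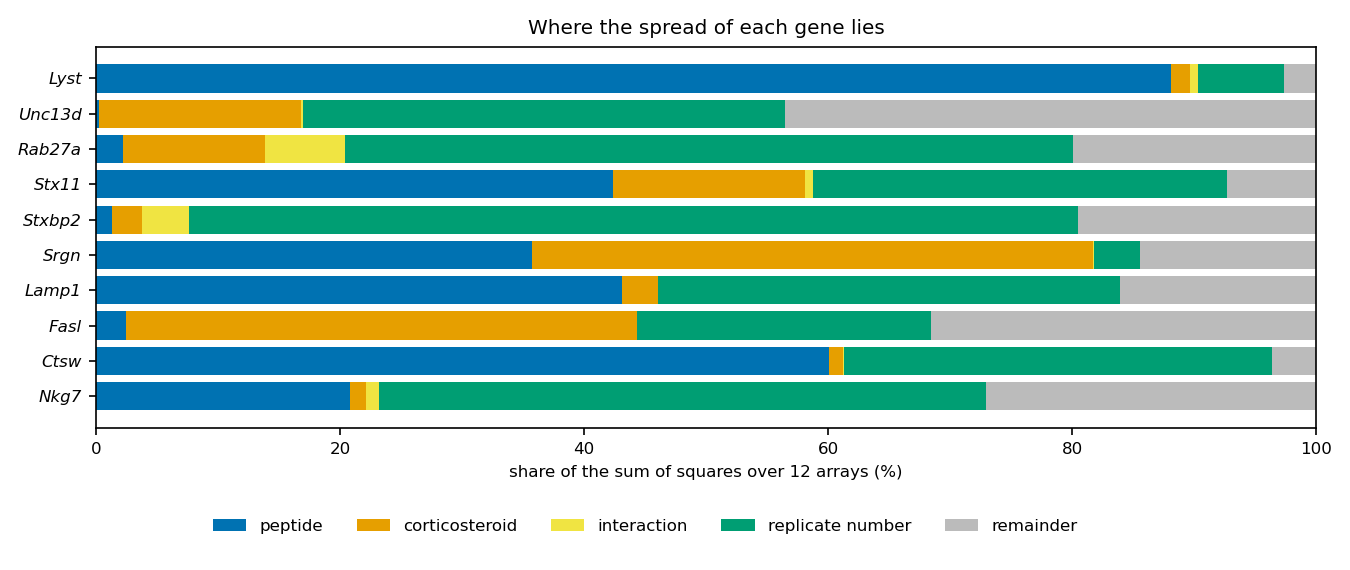
Share of the sum of squares over 12 arrays (x axis, percent) that went with the peptide, the corticosteroid, their interaction, the replicate number and the remainder (colours), for each of the 10 genes (rows). The peptide holds 88.1% for Lyst and 60.1% for Ctsw, while the replicate number holds 72.8% for Stxbp2 and 59.7% for Rab27a.

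Genes whose pattern over the 12 arrays was most like each member were taken by Pearson's r of the log2 signal among 16002 genes at or above the background line. These arrays share groups and replicate numbers, so the values are descriptions. Lyst was most like Ifit1bl1 (r = 0.980), Apol7e (0.974) and Apol7b (0.974). Ctsw was most like Arhgap9 (r = 0.990), Ms4a6b (0.988) and Fam105a (0.987). For Stx11 they were Hcfc2 (r = 0.960), Tcf4 (0.958) and Pkp4 (0.952), for Nkg7 Xlr4a (0.965), Amdhd2 (0.962) and Xlr4d-ps (0.960), and for Rab27a Ift22 (0.927), Dnajc10 (0.920) and Pacsin2 (0.920). No member was among the 3 most alike of another. Stxbp2 had Osbpl7 (r = 0.935), Ccdc88c (0.930) and Aldh6a1 (0.906), Lamp1 had Cotl1 (0.924), Pmm2 (0.920) and Rab19 (0.919), and Unc13d had Coq10a (0.916), Ctsb (0.906) and Atmin (0.891). The least matched were Fasl, with Ccdc102a (r = 0.862), Serpinb9 (0.830) and Zf12 (0.802), and Srgn, with Ramp3 (0.848), Zfp280b (0.819) and Rasa2 (0.794).

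Sequences upstream of the start were read for the members that differed between peptides and for the lysosomal Lamp1. RefSeq promoter windows (GRCm38.p6) were matched by symbol for 8 of 10 genes, in 10 windows, since Rab27a and Srgn have 2 each, and Unc13d and Ctsw are only named. The 250 bases before each start were searched on both strands for 7 short motifs. These were CACGTG (core of the site of TFEB and its relatives, regulators of lysosomal genes), TGANTCA (AP-1), GAAANNGAA (interferon regulatory factors), ACANNNTGT (palindromic core of the glucocorticoid receptor's site), AGGTGTGA (T-box factors), CCGGAAG (ETS factors) and TGTGGTT (RUNX factors). No 2 matches in these windows overlapped. Capitals below mark the bases of a match, and each line reads 5′ to 3′ on the strand of the gene. The 3 windows lie at chr13:13590159-13590408 on the + strand (Lyst), chr10:12964260-12964509 on the - strand (Stx11) and chr8:13158911-13159160 on the + strand (Lamp1).
Lyst: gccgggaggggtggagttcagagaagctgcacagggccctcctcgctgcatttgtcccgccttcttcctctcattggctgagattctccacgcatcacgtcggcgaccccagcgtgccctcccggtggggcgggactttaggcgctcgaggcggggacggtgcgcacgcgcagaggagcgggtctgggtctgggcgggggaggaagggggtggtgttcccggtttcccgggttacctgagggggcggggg
Stx11: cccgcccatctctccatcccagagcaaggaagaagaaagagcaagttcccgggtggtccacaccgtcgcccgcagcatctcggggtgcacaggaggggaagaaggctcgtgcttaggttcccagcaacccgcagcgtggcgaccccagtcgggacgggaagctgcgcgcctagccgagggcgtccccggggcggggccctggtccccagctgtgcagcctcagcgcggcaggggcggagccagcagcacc
Lamp1: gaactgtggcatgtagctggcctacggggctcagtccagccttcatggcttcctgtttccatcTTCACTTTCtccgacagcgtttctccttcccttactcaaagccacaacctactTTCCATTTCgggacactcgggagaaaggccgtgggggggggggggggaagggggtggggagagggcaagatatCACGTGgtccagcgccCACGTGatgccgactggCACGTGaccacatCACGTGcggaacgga

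The Lyst and Stx11 windows, with 69.2% and 70.0% G and C, held none of the 7 motifs as spelled, which says only that these letters are not in these 250 bases. The Lamp1 window held 4 copies of CACGTG, starting 61, 45, 28 and 15 bases before the start, and 2 matches to GAAANNGAA on the other strand, printed as TTCACTTTC and TTCCATTTC. CACGTG was also present once in the Stxbp2 window, 14 bases before the start, and once in a Rab27a window. Thus 3 of the 10 windows, from 3 of 8 genes, held it, where 6.02% of 32851 windows of this length did. The Nkg7 window held 1 AGGTGTGA, found in 1.12% of all windows, and so did the other Rab27a window, which also held a TGTGGTT (4.40%). The Srgn windows held CCGGAAG (6.91%) in 1, and GAAANNGAA (7.13%) and TGTGGTT in the other, and the Fasl window held none. TGANTCA and ACANNNTGT, present in 6.75% and 5.84% of all windows, were in no window of these genes. A match is a description of the letters, with no measure of binding here.

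The wider machinery was read from 6 lists of related genes, 144 in all, chosen with earlier results of these data known. In the corticosteroid comparisons and the interaction, 0 of them passed with limma without or with the block. Between the peptides most lay near 0, and the calls below are those with the block unless stated, beside the 2.94% and 6.53% of all genes and the 8.98% and 17.6% of genes at or above the background line.

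Among 32 SNARE and tethering genes, 0 passed without corticosteroid, with a range from -0.93 (Unc13a) to 0.43 (Stx16). With corticosteroid 1 was higher after Y3, Stx16 (0.69, adjusted p = 0.00801), a SNARE of endosome and Golgi transport. Of the 2 genes that were lower, 1 was Unc13a (-1.12, 0.0435), a relative of Unc13d known from neurons. In the Y3 group with corticosteroid 2 of 3 Unc13a arrays were above background, so the size of that difference is uncertain. The list median was -0.04 in both comparisons.

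Among 38 Rab and motor transport genes, 2 were higher without corticosteroid. Sytl2, a synaptotagmin-like protein that binds Rab27a at the membrane, rose by 1.72 after Y3 (adjusted p = 0.0191), with N4 arrays between 6.82 and 8.36 and Y3 arrays between 9.06 and 10.47, which do not overlap. Dock2, an activator of Rac that shapes actin at the synapse, rose by 0.68 (0.0176). With corticosteroid Sytl2 was at 1.13 (0.0558), and Dock2 (1.04, adjusted p = 0.00226, and 0.0323 without the block) and Dock8 (0.45, 0.0459) were higher. Arl8a (-0.49, 0.0464) and Arl8b (-0.38, 0.0264), GTPases that link lysosomes to kinesin, were lower there. Sytl3, another Rab27a partner, was the lowest without corticosteroid at -0.83 (0.0861). The list median was 0.02 and -0.01.

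Of 26 genes that build lysosome-related organelles, 1 rose in each steroid state, Bloc1s1 (0.78, adjusted p = 0.0128, and 0.68, 0.0125), a subunit of a sorting complex. Nbeal2, a BEACH-domain relative of Lyst, was the highest at 0.97 (0.0861) and 0.92 (0.0703) without passing, and Nbeal1, of the same family, the lowest at -0.40 and -0.24. The list median was 0.01 and 0.02.

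Of 22 proteases and sorting genes, 3 were higher and 1 lower without corticosteroid, and 3 higher and 2 lower with it. The lysosomal proteases Ctsa (0.53 and 0.58), Ctsd (0.71 and 0.79) and Ctss (0.93 and 1.06) were higher after Y3 in both, while Ctsz, cathepsin Z, was lower (-0.93 and -1.05). Cst3, the secreted protease inhibitor cystatin C, was lower with corticosteroid (-1.23, adjusted p = 0.0474) and stood at -1.03 without it (0.120). The adjusted p of the cathepsins ranged from 0.00371 to 0.0391. Ctsw was thus 1 of several cathepsins that were higher after Y3, and Ctsz shows that not all were.

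Of 11 death ligands and receptor partners, Lta, which encodes lymphotoxin, fell by 2.55 without corticosteroid (adjusted p = 0.0211) and by 2.35 with it (0.0176). The receptor Tnfrsf1a was higher with corticosteroid (0.61, 0.0356). Tnfsf10, the ligand TRAIL, was the highest without corticosteroid at 0.71 (0.179). Fasl stood at -0.04 in both.

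Of 15 enzymes that build the sugar chains carried by serglycin, Xylt2 (0.45, adjusted p = 0.0464) and Chst15 (0.78, 0.00896) were higher without corticosteroid and Chst15 (1.15, 0.00138) with it. Xylt2 starts the chains and Chst15 adds a sulfate to chondroitin sulfate. Chst15 was close to background after N4, with 2 of 3 arrays above the line in each N4 group. Csgalnact1 was the lowest at -0.49 and -0.44, neither past the test. Its log2 signal averaged 5.51, 5.18 and 4.91 on the arrays numbered 1, 2 and 3. These values are near or below the background line, so the sizes of its differences are uncertain.

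The corticosteroid differences of the lists reached the following genes, none of which passed. After N4 the highest SNARE gene was Vamp8 (0.23), and the differences ran from Myo5a (-0.34) to Sytl3 (0.27) among transport genes and from Bloc1s3 (-0.24) to Bloc1s1 (0.18) among organelle genes. Proteases ran from Ctsz (-0.35) to Cst7 (0.57), death ligands from Lta (-1.36) to Fas (0.17) and sugar chain enzymes from Csgalnact1 (-0.08) to Ndst1 (0.34). After Y3 the highest SNARE gene was Stx16 (0.32), and the other lists ran from Sytl2 (-0.62) to Sytl3 (0.69), Ap3s1 (-0.25) to Bloc1s3 (0.12), Ctsz (-0.46) to Ctsc (0.77), Lta (-1.17) to Fas (0.21) and B3galt6 (-0.25) to Chst15 (0.31). Lta and Ctsz were lower with corticosteroid in 3 of 3 pairs under both peptides. In the interaction the extremes were Stx6 (-0.26) and Stx16 (0.26), Sytl2 (-0.58) and Sytl3 (0.41), Hps3 (-0.21) and Bloc1s3 (0.36), Ctsl (-0.50) and Ctsc (0.53), Tnfsf10 (-0.41) and Tnf (0.22), and Chst11 (-0.22) and Chst15 (0.37).

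Many of these wider calls were lost when 1 array was left out. Over the 28 calls, 118 of 336 refits with 1 array left out missed the threshold, none changed sign, and 6 calls were kept in all 12. The 6 were Ctsz in both steroid states and, with corticosteroid, Dock2, Ctsd, Ctss and Chst15. With the block and median centring, Arl8a, Dock8 and Cst3 missed the threshold with corticosteroid and Ctsa and Xylt2 without it, and with quantile normalization Unc13a, Arl8a, Arl8b, Cst3 and Tnfrsf1a missed it with corticosteroid (adjusted p between 0.0535 and 0.0940).

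**Figure D4:**
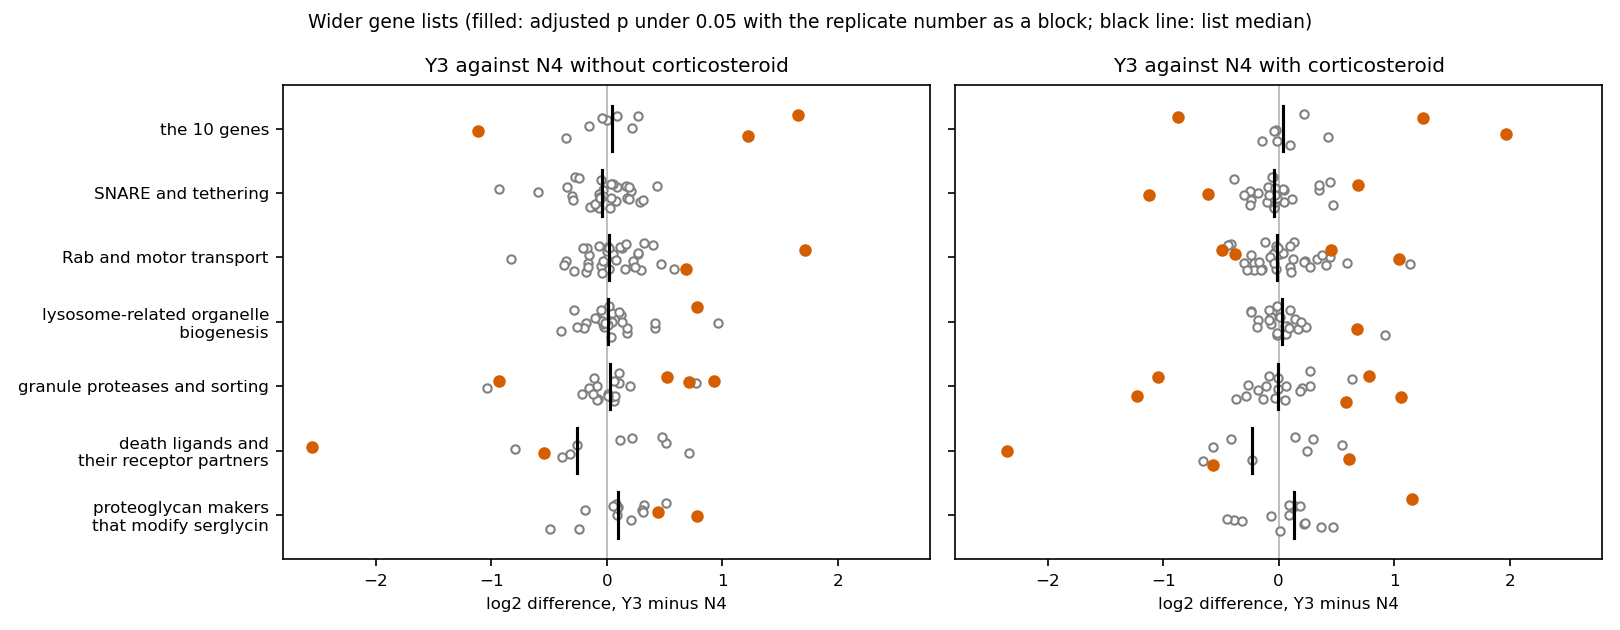
Log2 difference of Y3 minus N4 (x axis) of each gene in the set of 10 and in the 6 wider lists (rows), without corticosteroid on the left and with it on the right; filled points passed at 0.05 in the fit with the block, and the black line is the list's median. The lists' medians lie near 0, except that of the death ligands at -0.25 and -0.23, and Lta, at -2.55 and -2.35, is the lowest point in both panels.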

How the data were processed

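RNA of 12 samples (4 groups of 3) was labelled with biotin for Affymetrix arrays of the mouse transcriptome, per the labels' protocols. The deposited values are intensities on a linear scale for each transcript cluster, summarised by the authors with gene-level SST-RMA, per the file headers, and RMA, per the submitters' processing notes. The design assumed log2 values; the deposited intensities ran from 3.27 to 994483, so log2 was taken here, with no pseudocount and no further normalization. A second deposited table, keyed by sample, held the same values (0 differed), which settles the column codes. No genome build is named in the sources used here.

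Of 65956 clusters, 40123 had a symbol. The brightest cluster per symbol, by the mean of 12 arrays, left 39463 genes. The background line of an array is its brightest of 23 background controls (5.41 to 6.40 on the log2 scale), and 14275 to 17516 genes per array lay above it. Array medians lay between 5.02 and 5.16. With 3 arrays a group, precision is limited by their number.

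Tests used limma 3.58.1 (R 4.3.3, 4 group means, all 12 arrays, two-sided, Benjamini-Hochberg over all genes, threshold 0.05). In simulated data with independent arrays, the median estimates lay near the changes put in. That check did not measure how many real changes are called. An exact permutation test of 3 against 3 cannot go below p = 0.1 and was not used. Deviations from group means correlated between arrays of equal replicate number at 0.114 to 0.815 (18 pairs, median 0.532) and between arrays of different number at -0.704 to 0.481 (36 pairs, median -0.206). Every same-number pair was above 0.1, so the number was taken to pair the arrays. Across the peptides the pairing was less clear: array 3 of an N4 group correlated with array 2 of a Y3 group as much as or more than with array 3 in 4 of 4 combinations of groups (0.402 to 0.481 against 0.220 to 0.423), and the blocked calls between the peptides rest on this pairing. Alternatives were the block, median centring, quantile normalization, a filter at the background line, a pseudocount of 16, array weights, a trended prior, only the groups compared, the mean of a symbol's clusters, the second table and leaving out each array. The 10 genes and the lists were chosen with earlier results of these data known. The rule named all 10 genes, every list gene that passed in either fit, and, for each list and comparison, the highest and lowest gene above background in at least 1 group. Some genes that the rule or the marker lists name are counted but not reported here. Figures were drawn with matplotlib 3.10.9.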

Additional observations from a re-analysis of the deposited data

How the results depend on the processing

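The numbers were taken to pair the arrays, which was less clear across the peptides. With the replicate number as a block (replicate block), the genes past the threshold went from 12 to 1160 for Y3 against N4 without corticosteroid. With corticosteroid they went from 101 to 2576, and for corticosteroid after N4 from 0 to 1. The members past it between the peptides went from 0 to 3 without and from 1 to 3 with corticosteroid. The block changed no other call of a member. Without corticosteroid the 12 genes became 19 at or above the background line, 78 with array weights and 0 with only the groups compared. With corticosteroid the 101 became 62 with median centring, 1562 with array weights, 27 with a trended prior and 0 with only the groups compared, where 0 members passed. Leaving out 1 array gave 0 to 26 genes and 0 to 1 members without corticosteroid, and 0 to 205 genes and 0 to 1 members with it. With the block these ranges were 243 to 1341 and 847 to 2705 genes, 0 to 1 for corticosteroid after N4 (also 0 with the block and median centring), and for the replicate number 3419 to 7824 genes and 2 to 5 members. The blocked fits with other scaling or the filter were chosen after seeing the data. Among them, Stx11 lost its blocked call with corticosteroid under quantile normalization (-0.87, limma adjusted p = 0.0522), and Lyst and Ctsw kept theirs. No scaling moved the median of all genes by over 0.1. Only the groups compared gives no interaction.

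Members that did not pass the test changed sign in places, and the cause was not tested. Not all were near 0, since the fit without the block gave 0.32 for Lyst and 0.24 for Stx11 in the interaction. It gave 0.27 for Nkg7 in Y3 against N4 without corticosteroid. The sign changes are listed by setting. With median centring these were Nkg7 for corticosteroid after N4 (-0.00245), and in the interaction Lamp1 (-0.00217) and Fasl (-0.00321). With quantile normalization they were Nkg7 after N4 (-0.0178), Stxbp2 for corticosteroid after Y3 (0.0183), Unc13d for Y3 against N4 without (0.00178) and with corticosteroid (0.00805), Stxbp2 with corticosteroid (0.0189) and Unc13d in the interaction (0.00627). With array weights they were Nkg7 after N4 (-0.0189) and for Y3 against N4 without corticosteroid (-0.10), Rab27a with corticosteroid (-0.13), and in the interaction Unc13d (0.0127), Stx11 (-0.0563), Srgn (-0.0687), Lamp1 (-0.0371) and Fasl (-0.0227). Leaving out 1 array turned the sign of others, whose ranges follow. In the corticosteroid effect after N4 these were Lyst from -0.0254 to 0.18, Lamp1 from -0.0218 to 0.11, Ctsw from -0.25 to 0.57 and Nkg7 from -0.26 to 0.34. In that after Y3 these were Rab27a from -0.30 to 0.23, Stxbp2 from -0.0978 to 0.11, Lamp1 from -0.0423 to 0.14 and Ctsw from -0.0478 to 0.43. For Y3 against N4 without corticosteroid these were Unc13d from -0.0916 to 0.0638, Stxbp2 from -0.0345 to 0.17, Fasl from -0.11 to 0.024 and Nkg7 from -0.00424 to 0.51. With corticosteroid these were Unc13d from -0.0822 to 0.0298, Rab27a from -0.14 to 0.28, Stxbp2 from -0.14 to 0.052 and Fasl from -0.13 to 0.0257. In the interaction these were Lyst from -0.016 to 0.56, Unc13d from -0.0823 to 0.0731, Stx11 from -0.13 to 0.67, Stxbp2 from -0.22 to 0.0113, Srgn from -0.0352 to 0.0746, Lamp1 from -0.0969 to 0.0814, Fasl from -0.0846 to 0.0706, Ctsw from -0.39 to 0.44 and Nkg7 from -0.18 to 0.43.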

Other observations

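Fas, the receptor of Fasl and a gene of the death ligand list, differed far more between replicate numbers than between groups. Its log2 signal lay between 6.22 and 7.74 on the 4 arrays numbered 1, between 8.28 and 9.81 on those numbered 2 and between 9.68 and 10.50 on those numbered 3 (limma F test of the replicate number, adjusted p = 0.00211, a gene chosen after its values were seen). The arrays numbered 1 did not overlap the others. Of the wider lists, 12 of 22 protease and sorting genes and 7 of 11 death ligand genes passed the same F test, against 7 of 32 SNARE and tethering genes, 12 of 38 Rab and motor genes, 6 of 26 organelle genes and 3 of 15 sugar chain enzymes, beside 17.4% of all genes and 44% of those at or above the background line. The difference between the lists was not tested.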
